A study of Mus musculus with 4 samples.

Results

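The effector molecules with which cytotoxic lymphocytes kill were followed in the spleen of Snd1 knockout (KO) and wild-type (WT) mice as 9 genes chosen by name: the granzymes Gzma, Gzmb, Gzmk and Gzmm, the pore-forming protein gene Prf1, Nkg7, Ctsw, Fasl and Ccl5. Every probe annotated to one of them was taken, which gave 9 of 16590 named genes and 10 of the 25697 probes on the array, 2 of them for Prf1. The samples were the spleens of 2 KO and 2 WT mice, each on its own Illumina MouseRef-8 v2.0 bead array. All mice were C57BL/6N females of 8 to 12 weeks, and none was treated. The KO mice were homozygous for a germline deletion of the first Snd1 exon, so that every cell type lacked it. The deletion was made in 129/Sv embryonic stem cells with a ubiquitously active Cre and backcrossed to C57BL/6N, and littermates of heterozygous breeding served in the study. The comparison asked what loss of Snd1, which encodes a coactivator protein that binds RNA, does to gene expression in the spleen.

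Killer cells, which are natural killer (NK) cells and cytotoxic T cells, store granzymes and perforin in lysosome-like granules. On contact with a target the granules fuse with the cell surface, perforin opens the target membrane, and the granzymes, which are serine proteases, enter and cleave proteins that lead to cell death. A separate route runs through Fas ligand on the killer cell and the receptor Fas on the target. In a resting spleen, most cytotoxic T cells are naive, and much granzyme protein is made only after activation. The RNA came from whole spleen, and in such bulk samples fewer cells of a type and less RNA per cell cannot be told apart.

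The arrays resembled one another in the number of detected probes and in median signal. Between 12684 and 12908 probes were above background on the KO arrays and between 12396 and 12609 on the WT arrays, and the median raw signal was 112 to 114 on all 4. A probe was called detected at a deposited detection value over 0.95, and a probe was tested if it was detected in both KO or in both WT spleens, which held for 12493. Levels below are background-corrected, quantile-normalized log2 intensities, and differences are KO minus WT on that scale. Over the tested probes these levels correlated at 0.984 between the KO arrays and at 0.972 between the WT arrays, the least alike pair. The targeted gene separated the groups. Snd1 gave 4.45 and 4.58 on the KO arrays, not above background on either, against 6.71 and 7.09 on the WT arrays, and was at least 3.86-fold lower in KO, with a limma adjusted p of 0.0871. Where the Snd1 probe lies relative to the deleted exon was not looked up. The KO arrays differed from each other in genes of other tissues. The pancreatic protease gene Cpa1 was at 8.40 on KO replicate 1 and 5.0 on KO replicate 2, against 5.09 and 5.37 in WT, and the fat cell hormone gene Adipoq was at 5.18 and 9.69 on the KO arrays, against 4.75 and 4.69 in WT, where it was not above background. The spleen itself was evident on all 4 arrays from red pulp macrophage, B cell and red cell genes, with Slc40a1 at 13.85 and 13.70 in KO against 13.47 and 13.51 in WT, Cd79b at 12.68 and 13.13 against 12.85 and 13.20, and Hba-a1 at 14.51 and 14.57 against 14.49 and 14.48.

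Promoter sequence showed what the members share by position. Of the 9 genes, 7 had an entry in the RefSeq promoter table (build GRCm38.p6), with 2 start sites for Gzmm, which made 8 windows of 250 bases before the start. 3 short motifs were searched on both strands: GGTGTGA, a T-box core of the kind bound by Tbx21 and Eomes; TGTGGT, the Runx core; and AGGAAGT, an Ets site. The T-box and Runx letters can share bases where they adjoin, which they did not do here, and the motifs were chosen with these sequences in view. The lines below show one match for each matching gene, 30 bases each and 5′ to 3′ on the gene's own strand, because T-box, Runx and Ets proteins are known regulators of killer cell genes; capitals mark the motif, and ACCACA and ACTTCCT are the Runx and Ets letters on the opposite strand.
Nkg7, chr7:43437108-43437137, plus strand, T-box: agggagggggtagggaaGGTGTGAgaagaa
Gzmk, chr13:113181022-113181051, minus strand, T-box: ttgaaaccttgGGTGTGAaaaatctaacgt
Gzmm, start site 2, chr10:79693626-79693655, plus strand, T-box: ggcagctcttgGGTGTGAccgcatatgcag
Gzmb, chr14:56262351-56262380, minus strand, Runx: tgtgggttctgcTGTGGTtacttcatgatt
Gzma, chr13:113101014-113101043, minus strand, Runx: gagaagaacaaaACCACAtcctttgcactc
Prf1, chr10:61297716-61297745, plus strand, Ets: gggggcagggcAGGAAGTagtaatgatatg
Fasl, chr1:161788503-161788532, minus strand, Ets: tctgggcggaaACTTCCTggggttgctgtg

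The T-box letters stood in 3 of the 8 windows, those of Nkg7, Gzmk and the second Gzmm start, against 3.33% of all 32851 promoters in the table. The Runx letters stood in 5 of 8 (Gzma, Gzmb, the first Gzmm start, Prf1 and Nkg7), against 14.0%, and the Ets letters in 2 of 8 (Prf1 and Fasl), against 7.69%. A match is a description of the letters and not of a bound site. In gene order on the same assembly, Gzma and Gzmk were direct neighbours, Gzmb lay at the end of a run of 6 further granzyme genes that ends at Ctsg, and Gzmm was separated from the neutrophil protease gene Prtn3 by 11 protein-coding genes.

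Transcripts of 7 of the 9 effectors were above background in the KO spleens, 6 of them in the WT spleens too, and none differed between KO and WT at the threshold. Gzma and Gzmb, the classical granzymes, were not above background on any array, and each has 1 probe, whose performance the files do not show. Gzmk was above background in the KO spleens only. Fasl and the brighter Prf1 probe were nearly level on the 4 arrays, while Gzmm, Nkg7, Ccl5 and Ctsw gave more signal on the first KO replicate than on the second, with both WT arrays between them or close to the lower one. Of the 10 member probes, 8 entered the test, against 48.6% of all probes. In limma's test with Benjamini-Hochberg adjustment over all 12493 probes, 0 of these 8 passed an adjusted p of 0.05, against 0.0160% of all tested probes. At an unadjusted p under 0.05 the count was 1 of 8, the Gzmk probe, against 6.09% of all tested probes.

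**Figure D1:**
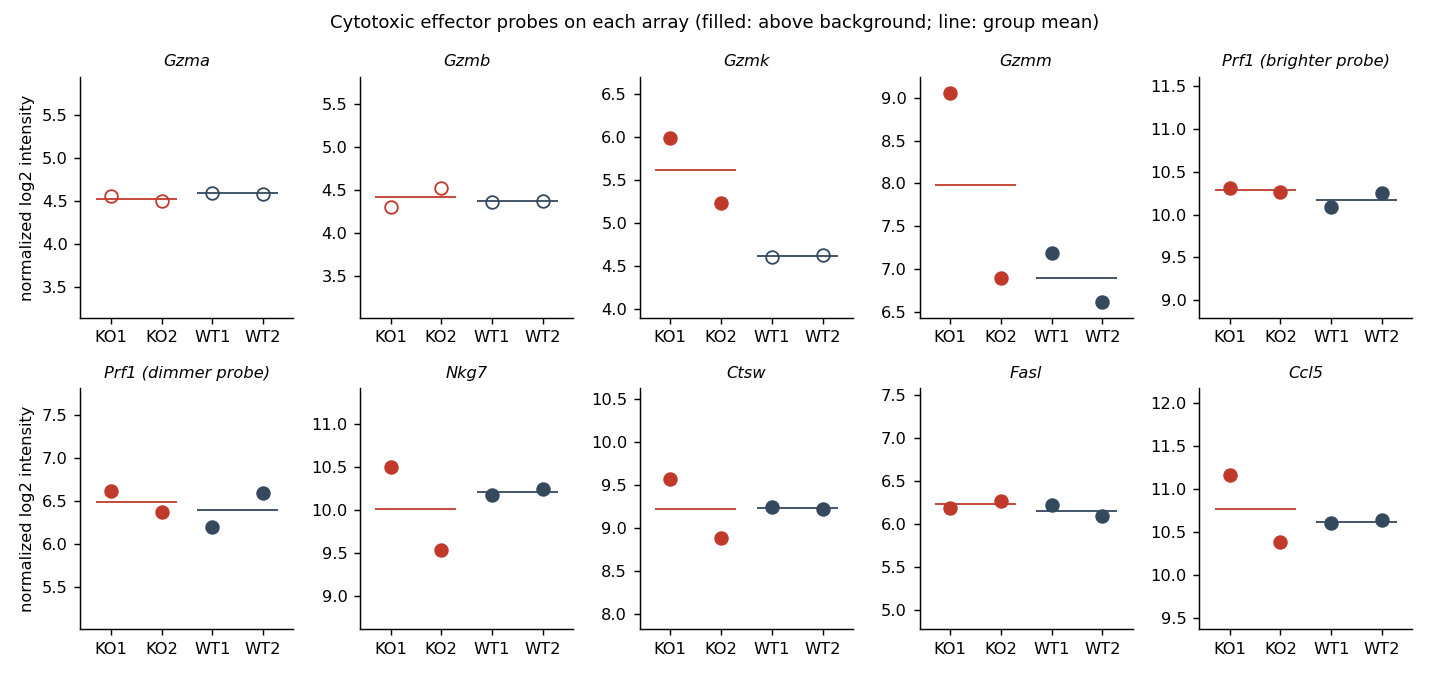
Normalized log2 intensity of each member probe on the 4 arrays, KO arrays left and WT arrays right, with open symbols where the probe was not above background and a line at each group mean. Gzma and Gzmb are open throughout, Gzmk is filled in KO only, and the KO points of Gzmm lie farthest apart, at 9.06 and 6.90.

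Gzmk, a granzyme with trypsin-like activity that is typical of memory T cells, had raw signals of 147 and 123 on the KO arrays, against 105 and 104 on the WT arrays. On the normalized scale it was at 6.00 and 5.24 in KO and at 4.61 and 4.63 in WT. Both KO spleens lay above both WT spleens, and the probe was detected on both KO arrays and on neither WT array. It was at least 1.53-fold higher in KO, with a fitted difference of 1.00 ± 0.27 (SE, n = 2 per group, 95% interval 0.30 to 1.70), an unadjusted p of 0.0147 and a limma adjusted p of 0.771. Because Gzmk entered the test only through the KO arrays, a higher KO value was built into its selection. Its fitted difference shrank to 0.36 without background correction and to 0.52 with a larger offset, and was 0.61 with KO replicate 1 left out and 1.36 with KO replicate 2 left out.

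Gzmm, the granzyme characteristic of NK cells and other innate-like lymphocytes, varied most among the members. It gave 9.06 and 6.90 on the KO arrays and 7.19 and 6.62 on the WT arrays. KO replicate 1 stood above the other 3 arrays, and KO replicate 2 lay between the WT arrays, so that the groups overlapped. Its mean was 7.98 ± 1.52 in KO and 6.90 ± 0.41 in WT (SD, n = 2 each), a difference of 1.08 ± 0.72 (SE, 95% interval -0.76 to 2.91, limma adjusted p = 0.780). The difference rested on KO replicate 1: it was 0.0032 without that array and 2.15 without KO replicate 2.

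Gzma and Gzmb, the tryptase and the aspartate-cleaving granzyme that are the most abundant proteases of activated killer cells, gave 4.55 and 4.49 in KO against 4.59 and 4.59 in WT for Gzma, and 4.30 and 4.52 in KO against 4.36 and 4.37 in WT for Gzmb. Their raw signals, 101 and 99.0 in KO against 104 and 102 in WT for Gzma, lay under the median signal of all probes. Neither gene was tested. The other 6 granzyme genes of the array, Gzmc, Gzmd, Gzme, Gzmf, Gzmg and Gzmn, were likewise not above background on any array.

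Ctsw, a cysteine protease found in NK and cytotoxic T cells, was at 9.57 and 8.88 in KO and at 9.25 and 9.22 in WT. The KO arrays lay on either side of the WT arrays, which were 0.02 apart. The difference of -0.01 ± 0.26 (SE, 95% interval -0.67 to 0.64, limma adjusted p = 0.996) was 0.03 under median scaling and 0.33 without KO replicate 2.

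Prf1, which encodes perforin, was read by 2 probes. The brighter one was at 10.31 and 10.27 in KO and at 10.09 and 10.25 in WT, with both KO arrays above both WT arrays by a margin of less than 0.1. The difference was 0.12 ± 0.15 (SE, 95% interval -0.26 to 0.49, limma adjusted p = 0.909). The dimmer probe gave 6.62 and 6.36 in KO and 6.20 and 6.59 in WT, which overlapped, with a difference of 0.09 ± 0.20 and a 95% interval of -0.42 to 0.61. The 2 probes thus differed in whether the groups overlapped. The dimmer one turned to -0.03 without KO replicate 1 and to -0.10 without WT replicate 1.

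Nkg7, a granule membrane protein that takes part in granule release, was at 10.50 and 9.53 in KO and at 10.17 and 10.24 in WT. KO replicate 1 was the highest array and KO replicate 2 the lowest. The difference was -0.19 ± 0.34 (SE, 95% interval -1.06 to 0.67, limma adjusted p = 0.930), which became -0.68 when KO replicate 1 was left out and 0.29 when KO replicate 2 was left out.

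Fasl, the death ligand, was at 6.19 and 6.27 in KO and at 6.22 and 6.09 in WT. The 4 values lay within 0.2 of one another and the groups overlapped. The difference was 0.07 ± 0.14 (SE, 95% interval -0.30 to 0.45, limma adjusted p = 0.938).

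Ccl5, a chemokine made ready in advance by memory T cells and NK cells, was at 11.17 and 10.38 in KO and at 10.61 and 10.64 in WT. As for Nkg7, the KO spleens enclosed the WT spleens. The difference was 0.15 ± 0.28 (SE, 95% interval -0.58 to 0.87, limma adjusted p = 0.936), and it turned to -0.24 without KO replicate 1.

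**Figure D2:**
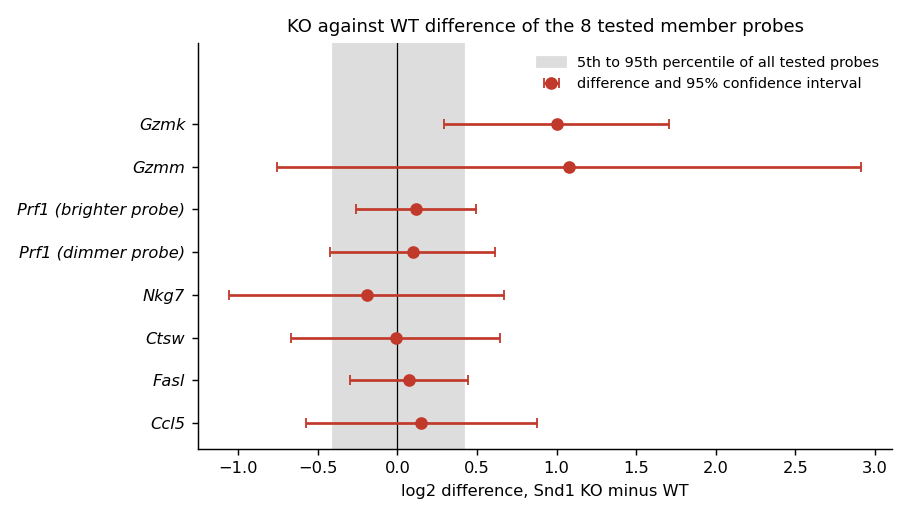
KO minus WT difference of each tested member probe (log2) with its 95% interval from limma, and as a grey band the 5th to 95th percentile of all 12493 tested probes, -0.40 to 0.42. Only the interval of Gzmk, 0.30 to 1.70, leaves 0 outside, and that of Gzmm is the widest.

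Most members had the higher mean in KO, with none past the threshold. Of the 8 tested probes, 6 had the higher mean in KO, against 48.9% of all tested probes. By gene it was 5 of 7, since Prf1 has 2 probes. Gzmk entered the test only through the KO arrays, so that its part in the counts and medians of this paragraph was built into its selection. The KO and WT values did not overlap with KO higher in 2 of 8, Gzmk and the brighter Prf1 probe, against 19.4%, and with KO lower in 0 of 8, against 18.5%. Counted in either direction, 2 of 8 did not overlap, against 37.9%. With 1 probe per gene, the median difference was 0.12 over the 7 tested genes and 0.07 over all 9, against -0.01 over all tested probes. Leaving out KO replicate 1 took the median over the 7 genes to 0.0032, and leaving out KO replicate 2 took it to 0.33.

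The spread between the KO spleens was wide for most members. Gzmm differed by 2.16 between KO replicate 1 and KO replicate 2, a gap reached by 0.200% of all tested probes, and by 0.58 between the WT arrays. The KO gap of Nkg7 was 0.97, that of Ccl5 0.79, that of Gzmk 0.76 and that of Ctsw 0.69, gaps reached by 1.60%, 3.02%, 3.35% and 4.39% of tested probes. The WT arrays were less than 0.1 apart for each of these 4 genes, but Gzmk was not above background on either WT array, so that its WT gap compares background signals. The brighter Prf1 probe and Fasl had KO gaps of 0.04 and -0.08, which 87.1% and 76.5% of tested probes reached. The dimmer Prf1 probe had a KO gap of 0.25, reached by 35.5%, and a WT gap of -0.40. Over the 7 tested genes, Gzmk included, the median size of the KO gap was 0.76, against 0.18 for all tested probes, and that of the WT gap 0.07, against 0.21.

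KO replicate 1 was the highest array for 7 of the 8 tested probes, all but Fasl, against 22.5% of all tested probes. By gene it was 6 of 7, among them Gzmk, which entered the test only through the KO arrays. KO replicate 2 was the lowest array for 3 of 8, against 21.8%. KO replicate 1 was the highest with KO replicate 2 the lowest for 3 of 8, those of Nkg7, Ctsw and Ccl5, against 5.84%. These counts describe the order of single arrays, with 1 mouse behind each, and the labels give no variable that separates the KO mice.

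**Figure D3:**
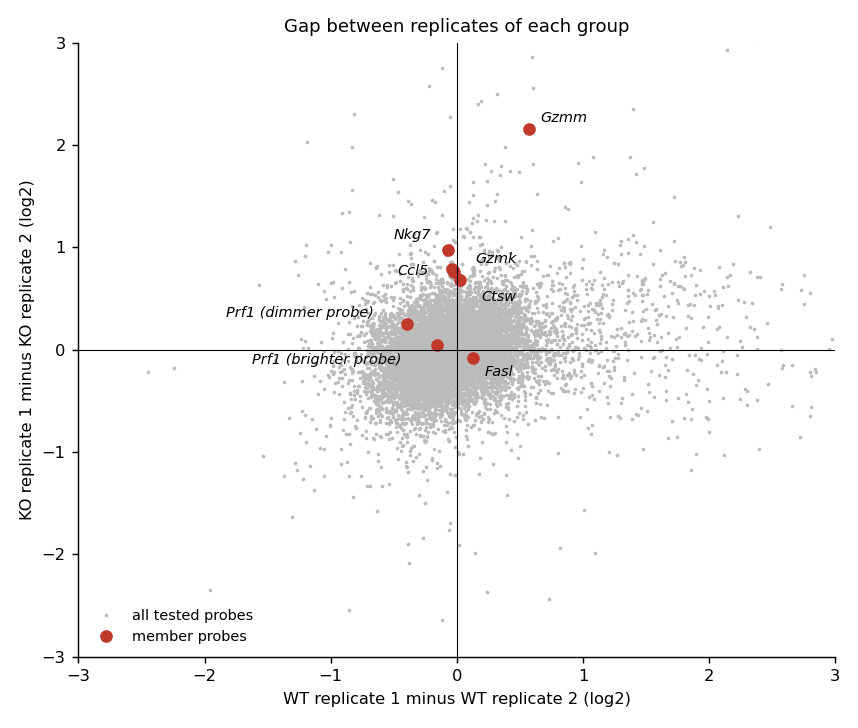
Gap between KO replicates (vertical, log2) against the gap between WT replicates (horizontal, log2), with all tested probes in grey and the member probes named; both axes end at 3, which leaves out the widest probes. Gzmm lies at 2.16 and 0.58, Nkg7, Ccl5, Gzmk and Ctsw lie between 0.69 and 0.97 above a WT gap near 0, and Fasl and both Prf1 probes lie among the other probes.

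The genes whose 4 values followed Gzmm, the member with the widest range (2.44), most closely were sought by the root mean square difference of centred log2 values over the 4 arrays. They were Cd163l1 at 0.181, Mef2b at 0.222, Nrn1 at 0.248, Cpxm1 at 0.297 and Gp2 at 0.299. Cd163l1, a scavenger receptor gene of gamma delta T cells, was at 8.34 and 6.51 in KO and at 6.85 and 5.88 in WT. Cpxm1, of the carboxypeptidase family, was at 9.15 and 6.59 in KO and at 7.62 and 7.02 in WT. Gp2, a secretory granule membrane gene of the exocrine pancreas, was at 7.36 and 5.84 in KO and at 5.45 and 4.82 in WT. Its value on WT replicate 2 lay under the lowest detected level of that array, 5.02, so that Gp2 entered the test through the KO arrays. With only 4 arrays such likeness is a description of which arrays were high.

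The genes around the effectors were followed in 7 lists with 67 genes, of which 62 were on the array and 46 were tested. None of the 46 passed the limma threshold, 0 in either direction. At an unadjusted p under 0.05, 3 were higher in KO, against 3.31% of tested probes, and 1 was lower, against 2.78%. 1 of the 3, Il12rb1, entered the test through the KO arrays alone, so that its part in this count was built into its selection.

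Genes for packaging and activating the granule proteases were all 10 above background on all 4 arrays, with a higher mean in KO for 4, a lower one for 6 and a median difference of -0.03. M6pr, a mannose 6-phosphate receptor that sorts granzymes, was at 10.95 and 10.86 in KO against 10.49 and 10.53 in WT, a difference of 0.40 with an unadjusted p of 0.0363 and a limma adjusted p of 0.771. Ctsc, the protease that trims the inactive granzymes, was at 11.95 and 12.07 in KO against 11.60 and 11.73 in WT, and Lamp2, a lysosome membrane gene, at 11.41 and 11.41 against 11.03 and 11.13. On these probes, the brightest of each gene, both KO spleens lay above both WT spleens. The genes' other probes did not all follow: the other M6pr probe differed by -0.00076, both other Ctsc probes by -0.07 and -0.04, and the 3 other Lamp2 probes by 0.48, -0.10 and -0.06. The 10 granule release genes tested had a higher mean in KO for 6 and a lower one for 4, with a median difference of 0.02. Unc13d, which primes granules for fusion, was at 7.65 and 7.76 in KO against 8.04 and 8.08 in WT on its brighter probe, a difference of -0.35, but its dimmer probe gave 7.30 and 7.22 against 7.13 and 7.21, a difference of 0.10. The membrane fusion gene Vamp7 differed by 0.25. Vamp8, of the same family, differed by -0.45 on its brighter probe, where the groups overlapped, and by -0.36 on its dimmer probe, where they did not.

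Granzyme inhibitors of the serpin family held the widest differences of the 7 lists. 4 of 6 were tested, 3 with the higher mean in KO and 1 with the lower, with a median of 0.15. Serpinb1a, an inhibitor of neutrophil serine proteases that also inhibits granzyme H in human, was at 7.63 and 8.27 in KO against 8.71 and 8.83 in WT, a difference of -0.83 ± 0.25 (SE, n = 2 per group, unadjusted p = 0.0197, limma adjusted p = 0.771). Serpina3n, a secreted inhibitor of granzyme B in mouse, was at 9.43 and 9.44 in KO against 8.09 and 9.03 in WT, a difference of 0.88 ± 0.33 (unadjusted p = 0.0429, limma adjusted p = 0.771). Neither gene overlapped between the groups. Serpinb6b differed by 0.25, and Serpinb9, the intracellular granzyme B inhibitor, was not above background on any array.

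Downstream of granzymes and Fas ligand, 6 of 8 genes on the array were tested, 3 with the higher and 3 with the lower mean in KO, with a median of -0.02. Dffa, the inhibitor of the nuclease that cuts DNA in dying cells, was at 6.32 and 6.34 in KO against 6.62 and 6.71 in WT, a difference of -0.33. Casp8, the caspase that Fas recruits, was at 9.29 and 9.39 in KO against 9.52 and 9.78 in WT, a difference of -0.31 that was -0.09 on its dimmer probe, while Tnfrsf10b, a receptor for the death ligand TRAIL, differed by 0.21. None passed the limma threshold, with an adjusted p of 0.771 at the lowest.

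Chemokines and receptors around Ccl5 followed the order of the arrays seen for Ccl5 itself in part. 5 of 6 were tested, 4 with the higher mean in KO, with a median of 0.05. Ccl4, a chemokine released with Ccl5, was at 9.23 and 8.25 in KO against 8.49 and 8.27 in WT on its brighter probe, a difference of 0.36, but its dimmer probe gave 5.91 and 5.22 against 5.67 and 5.71, a difference of -0.13. Ccr3, a Ccl5 receptor, was at 6.74 and 6.02 in KO against 6.48 and 5.79 in WT, and Ccl3 differed by -0.30. KO replicate 1 was the higher KO array for each of these genes and for Xcl1. Ifng went the other way, at 5.02 and 5.49 in KO against 5.30 and 5.11 in WT. Of the 5 tested genes, only Ccl4 was highest on KO replicate 1 and lowest on KO replicate 2, the order of Ccl5. Without KO replicate 1, Ccl4 was at -0.13 and Ccr3 at -0.12.

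Of 16 regulators and cytokine receptors of killer cells on the array, 11 were tested, 8 with the higher and 3 with the lower mean in KO, with a median of 0.05. Il12rb1, a receptor chain for interleukin 12, was at 5.21 and 5.26 in KO against 4.58 and 4.67 in WT and was detected on the KO arrays only, at least 1.18-fold higher (fitted difference 0.62, unadjusted p = 0.00687, limma adjusted p = 0.771). Like Gzmk, it entered the test through the KO arrays alone, so that its part in the counts and median of this list was built into its selection. Il18r1, the interleukin 18 receptor, was at 7.83 and 7.54 in KO against 7.24 and 7.38 in WT, and Zeb2, a transcription factor of terminal effector cells, at 9.98 and 9.97 against 9.80 and 9.63. Both KO spleens were higher in each, and the differences of 0.38 and 0.26 did not pass.

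The cells that make the effectors were read from marker lists. In the NK list, 6 of 7 genes on the array were tested, and the summed normalized intensity of the list was 1287 and 1148 in KO and 1018 and 1567 in WT. Klrd1, an NK receptor chain, was at 9.60 and 9.33 in KO against 9.13 and 9.84 in WT, and Klre1 was at 7.43 and 7.19 in KO against 7.47 and 8.18 in WT. Ncr1, the defining NK receptor, was not above background on any array. Of the tested NK genes, 3 had the higher mean in KO and 3 the lower, with a median difference of 0.06. WT replicate 2 had the highest sum of the NK list, but Klrk1, Itga2 and Cd160, on the brightest probe of each, were not highest there. No tested member was highest on WT replicate 2. In the T cell list the sum was 10205 and 9918 in KO and 10939 and 10973 in WT. Cd8b1 was bright at 11.56 and 11.92 in KO against 11.91 and 11.33 in WT on its brighter probe, although Cd8a was not above background on any array. Its dimmer probe had the KO arrays in the opposite order, at 10.08 and 9.06 in KO against 8.67 and 9.66 in WT. Cd3g was at 10.19 and 9.81 in KO against 10.57 and 10.54 in WT (difference -0.56, unadjusted p = 0.0273, limma adjusted p = 0.771). The part of NK and T cell numbers in the member values was not tested.

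Other cells can also express granzymes, and their markers were read beside the members. Plasmacytoid dendritic cells, a source of granzyme B, had list sums of 3504 and 4328 in KO against 3457 and 4831 in WT. Their marker Tcf4, which made up most of these sums, differed by -0.0035. Cox6a2 was at 5.43 and 5.94 in KO against 6.79 and 7.69 in WT, a difference of -1.55 (unadjusted p = 0.00683, limma adjusted p = 0.771). Siglech differed by -0.60 on its brightest probe, where the groups overlapped, and by -0.97 on a dimmer one, where they did not. Bst2 differed by 0.18, and Ccr9 was not above background on any array. Mast cell genes summed to 208 and 206 in KO against 210 and 186 in WT. Of the 7 on the array, 4 were not above background on any array, so that much of this sum is background signal. Cma1, the brightest of that list, was at 5.04 and 5.68 in KO against 5.54 and 5.01 in WT. Gzmb stayed at background on every one of these arrays.

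Among the lists of other cells and tissues, the neutrophil granule, pancreas, liver and adipocyte sums set a KO array or both apart. The 8 neutrophil granule genes, a list written with the study's granule genes in view and so not independent evidence of a direction, all had both KO arrays below both WT arrays and were lowest on KO replicate 2. Their sum was 3724 and 1153 in KO against 6445 and 5067 in WT. Ngp was at 8.53 and 7.02 in KO against 9.66 and 9.53 in WT, and Ltf at 10.66 and 8.91 against 11.08 and 10.66. The pancreas list summed to 1961 and 328 in KO against 487 and 371 in WT, with Cela1 at 9.51 and 7.69 against 8.51 and 7.91. The liver list summed to 549 and 579 in KO against 127 and 125 in WT, with Cyp2e1 at 6.63 and 8.61 against 4.59 and 4.44 and Alb at background on all 4 arrays. Ttr at 7.67 and 6.11, Apoa1 at 7.16 and 5.63 and Fgg at 6.36 and 5.61 in KO were instead higher on KO replicate 1. Cyp2e1, Ttr, Apoa1 and Fgg were detected on the KO arrays only and entered the test through them. The adipocyte list summed to 100 and 891 in KO against 95.4 and 92.0 in WT. Of its 4 genes on the array, Fabp4, Retn and Plin1 were not above background on any array, so that the sum followed Adipoq alone. The B cell list summed to 8585 and 11823 in KO against 10075 and 12903 in WT, higher on replicate 2 in both groups. Of the B cell genes, 4 had the lower mean in KO and 1 the higher, with a median difference of -0.22. The 1 with the higher mean was Pax5, a B cell transcription factor, which differed by 0.32. Red pulp macrophage gene Adgre1 was at 9.06 and 9.16 in KO against 8.45 and 8.12 in WT on its probe of smallest p, with 0.27 and 0.01 as the differences of its other probes. Of the 5 tested genes of that list, 3 had the higher mean in KO and 2 the lower. The lower ones were Hmox1, at -0.41, and Spic, at -0.35 on its brighter probe and 0.06 on its dimmer one. Cd5l was not above background on any array. The red cell gene Slc4a1 was at 13.58 and 13.88 against 14.38 and 10.97, with WT replicate 2 the array set apart. Of the 6 pancreas genes on the array, 2 were tested, and Prss2 was not above background on any array. The other pancreas genes were thus highest on KO replicate 1, which was also the highest array for every tested member gene but Fasl. Of the 4 tested liver genes, 3 were highest on that array too. The neutrophil granule genes were low on KO replicate 2, the array on which Nkg7, Ctsw and Ccl5 were low. The part of these lists in the member values was not tested.

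**Figure D4:**
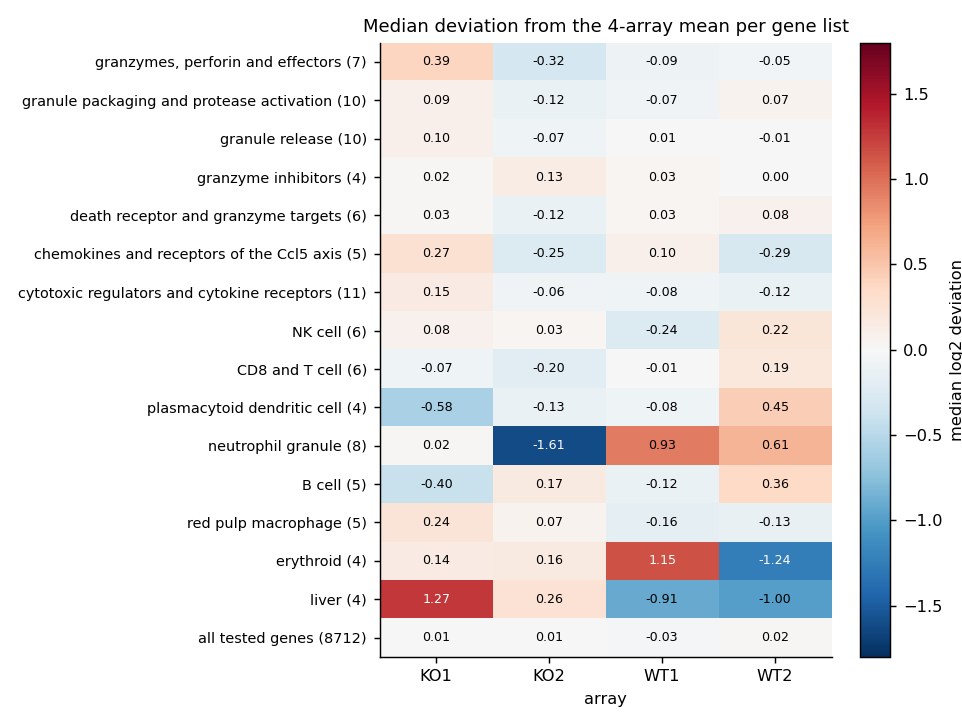
Median deviation from the mean of the 4 arrays (log2) for the tested genes of each list with at least 4 of them, one column per array with KO left of WT. The effector members read 0.39 and -0.32 on the KO arrays and -0.09 and -0.05 on the WT arrays, the NK list reads 0.08 and 0.03 against -0.24 and 0.22, and the strongest colours belong to neutrophil granule, erythroid and liver genes.

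Set beside the lists of their presumed source cells, the members differed in which arrays were high. The median deviation from the mean of the 4 arrays was 0.39 and -0.32 in KO against -0.09 and -0.05 in WT for the members, and 0.08 and 0.03 in KO against -0.24 and 0.22 in WT for NK genes. For T cell genes it was -0.07 and -0.20 in KO against -0.01 and 0.19 in WT, and for the chemokine list around Ccl5 0.27 and -0.25 in KO against 0.10 and -0.29 in WT. The chemokine list shared the gap between the KO arrays with the members, and the NK and T cell lists, read on the brightest probe of each gene, showed a smaller gap. These medians are descriptions over genes that share the same 4 arrays.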

How the data were processed

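RNA of 2 KO and 2 WT spleens was hybridised to 1 bead array each. The authors deposited probe signal intensity values from GenomeStudio, without normalization, and a detection column as a fraction that is high for bright probes and was read as 1 minus the p-value. They also deposited a table of log2 values, which equals the quantile-normalized log2 signals to within 1e-06 for all probes but 1; its column medians were 6.82, and it is uncentred. Columns of per-sample values without a sample numbered 0.

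Background was removed with normexp (offset 16), its negative controls being inferred from detection, and signals were quantile normalized and log2-transformed (neqc, limma 3.58.1, R 4.3.3). Groups were compared with lmFit and eBayes and Benjamini-Hochberg adjustment over 12493 probes at a threshold of 0.05, and the fit was tested on simulated data. A fold given as "at least" sets the brighter group's mean against, per array, the dim probe's own signal or the lowest detected one, whichever was higher. A list gene stood for its probe of highest mean. An exact permutation test of 2 against 2 cannot go below 0.333 and was not used. The sources used here give no slide or scan batch. The replicates are biological duplicates per the labels, and with 4 arrays their number limits the precision. Of all probes, 23978 had 1 gene symbol, 0 several and 1719 none, and 8 symbols were updated through a GRCm38.p6 table.

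Members and lists were chosen with earlier results of these data known. Named were all member probes, the 3 tested genes of smallest p in each pathway list, the highest and the smallest-p gene of each cell type list, Snd1 and the 5 genes most like the member of widest range. Cd8a, Ncr1, Alb, Ttr, Apoa1, Fgg, Fabp4, Retn, Plin1, Xcl1, Ifng, Serpinb9 and the other probes of list genes were named after their values were seen. So were Klrk1, Itga2, Cd160, Spic, Hmox1, Cd5l, Siglech, Bst2, Ccr9 and Prss2. Alternatives were no background correction, an offset of 50, median scaling, the authors' table, no filter, the replicate number as a block, a trend and robust prior, detection over 0.99 on all arrays, and each array left out in turn.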

Additional observations from a re-analysis of the deposited data

How the results depend on the processing

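With 2 arrays per group, 1 spleen decides many values, and the signal of Gzma, Gzmb and all other granzymes except Gzmk and Gzmm stayed at background. No member, and no gene of the 7 pathway lists, passed the threshold under any alternative. The number of member genes at an unadjusted p under 0.05, 1 as reported, was 0 with detection over 0.99 on all arrays, where Gzmk was not tested, and 1 to 2 with an array left out. With the replicate number as a block it was 2, Gzmk and Gzmm; the labels do not say that numbers mark pairs, and deviations of same-numbered arrays correlated at 0.188 (2 pairs). The block changed no other member call. The count of all probes past the threshold with KO higher, 2 as reported, was 0 with no background correction, 0 with the replicate block, 0 with no filter, 0 with the authors' table, 4 with an offset of 50, 7 with a trend and robust prior, and 0 to 13 with an array left out. With KO lower, 0 as reported, it was 1 with a trend and robust prior and 0 to 1 with an array left out. Median scaling turned Ctsw to 0.033, Klrd1 to 0.026, Tcf4 to 0.036 and Hba-a1 to -0.12 (log2 differences). With an array left out, the difference ranged from -0.24 to 0.54 for Ccl5, -0.35 to 0.33 for Ctsw, -0.68 to 0.29 for Nkg7, -0.10 to 0.29 for the dimmer Prf1 probe, -0.13 to 0.85 for Ccl4, -0.12 to 0.59 for Ccr3, -0.38 to 0.34 for Klrd1, -0.17 to 0.41 for Cd8b1, -0.24 to 0.24 for Tcf4, -0.23 to 0.40 for Cma1, -0.36 to 0.12 for Cd79b, -0.64 to 2.70 for Slc4a1, -0.52 to 1.3 for Cela1 and -0.23 to 3.17 for Cpa1. Snd1 passed without WT replicate 1 (limma adjusted p = 0.0395) and with a trend and robust prior (0.0461). Why these values moved was not tested.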
